A study of Rattus norvegicus with 9 samples.

Results

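Transcripts of 9 genes of the transforming growth factor beta (TGF-beta) family and its stress-linked relatives were followed in neonatal rat ventricular myocytes, primary heart muscle cells from the ventricles of newborn rats that enlarge in culture when given a growth stimulus. The genes were chosen by symbol, with earlier results of these data known. They were the ligands Tgfb1, Tgfb2 and Tgfb3, the receptors Tgfbr1 and Tgfbr2 and the latency protein Ltbp1. The inhibitory SMAD Smad7, the activin subunit Inhba and the stress cytokine Gdf15 completed the 9. All 9 had a row in the table of 17327 rows, and all 9 were among the 11873 genes tested after a filter on low counts. The cells received 50 µM phenylephrine, an alpha-adrenergic agonist, 10 nM of the growth factor IGF1, or vehicle, for 48 hours, with 3 samples in each group. The labels name the cells as primary cardiomyocytes and give neither a sort nor the make-up of the vehicle, and they do not state whether replicates were separate cultures. The p-values are therefore set against a spread among samples that may be technical only.

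TGF-beta ligands are secreted in a latent form, bound to their own propeptide and to latent TGF-beta binding proteins that tether them to the matrix. Once released, a ligand dimer is bound by the type II receptor, which recruits and phosphorylates the type I receptor, and the type I receptor phosphorylates SMAD2 and SMAD3, which move to the nucleus with SMAD4. Activins signal through related receptors to the same SMADs, bone morphogenetic proteins through SMAD1, SMAD5 and SMAD9, and SMAD6 and SMAD7 are feedback inhibitors. In the heart the pathway is known for fibrosis, for a fetal pattern of gene expression in muscle cells and, in the case of GDF15, as a circulating marker of cardiac stress.

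Total counts were 31274396 to 33607863 reads in the phenylephrine samples, 31987197 to 46221459 in the IGF1 samples and 38659775 to 48505265 in the vehicle samples. Levels are counts scaled to the library total (CPM) with normalization factors by the trimmed mean of M-values, and 1 CPM rested on 29.1 to 51.6 reads. They are not divided by transcript length, so a level is compared between samples and not between genes. IGF1 replicate 1 stood apart from the rest of its group. Among genes with a mean of at least 5 CPM, 226 to 263 differed over 1.5-fold between it and either other IGF1 sample, against 6 to 30 genes for every other pair of samples of a group. Because all 9 samples share one estimate of the spread, values without it are given for the 9 genes where the call or the size moved, and for other named genes where an IGF1 value moved by over 0.1 on the log2 scale.

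The cells were checked against markers of the cell types such a culture could hold, as summed CPM of a list. Cardiomyocyte markers (12 genes) came to 48800 to 49700 CPM with phenylephrine, 38000 to 53600 CPM with IGF1 and 29700 to 31800 CPM with vehicle. Of these genes, 8 were higher and 3 lower with phenylephrine than with vehicle, against 27.9% higher and 28.9% lower of all 11873 genes tested, and 9 were higher and 1 lower with IGF1, against 24.7% and 23.4% of all genes. Fibroblast markers (10 genes) came to 3330 to 3390 CPM, 3330 to 3860 CPM and 3380 to 4070 CPM in the phenylephrine, IGF1 and vehicle samples, and smooth muscle and pericyte markers (10 genes) to 2830 to 2890 CPM, 1870 to 2420 CPM and 1990 to 2100 CPM. Single genes made up much of these sums. In that order of groups, Actc1 averaged 18460, 11750 and 6022 CPM and Col1a1 3081, 3360 and 3460 CPM. Acta2 averaged 1202, 862 and 806 CPM and Tagln 886, 596 and 705 CPM. A sum is therefore no measure of the number of cells of a type. Among the IGF1 samples, Actc1 ran from 8291 to 18320 CPM. Acta2 ran from 725 to 1112 CPM there, against 784 to 828 CPM with vehicle. IGF1 replicate 1 had the highest cardiomyocyte sum of its group, 53600 CPM against 38000 and 39200 CPM in replicates 2 and 3. Its smooth muscle and pericyte sum was also the highest of the group, 2420 CPM against 1870 and 1930 CPM. Endothelial markers (10 genes) were low, at 74.6 to 87.9 CPM, 45.2 to 51.2 CPM and 89.7 to 97.1 CPM in the same order of groups, and so were macrophage and leukocyte markers (10 genes; 69.3 to 87.6, 70.1 to 77.4 and 75.8 to 86.2 CPM) and epicardial markers (7 genes; 66.6 to 68.6, 56.3 to 64.4 and 69.7 to 76.5 CPM). With phenylephrine, 1 and 3 of the fibroblast markers were higher and lower than with vehicle, 4 and 3 of the smooth muscle markers, and 1 and 1 of the endothelial markers, while 2 of 8 tested macrophage markers were lower and 2 and 3 of the epicardial markers were higher and lower. With IGF1, 3 and 2 of the fibroblast markers and 1 and 2 of the smooth muscle markers were higher and lower, and 6 endothelial, 1 macrophage and 3 epicardial markers were lower. No marker was at 0 in every sample, and Rgs5, Kcnj8, Vwf, Emcn, Cd163, C1qa and C1qb averaged below 1 CPM. The culture thus held transcripts of marker genes of other cell types beside those of myocytes. In bulk RNA, fewer cells of a type and less RNA per cell cannot be told apart. Leaving out 1 sample moved each of these counts by at most 2, except that 5 in place of 9 cardiomyocyte markers were higher with IGF1 without vehicle replicate 1. The part of these shifts in the results below was not tested.

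Promoter windows of the 3 genes with the largest rise under phenylephrine (Tgfb2, Inhba and Gdf15) are printed here so that the letters just upstream of genes that moved together can be read side by side. Each runs 5′ to 3′ on the gene's strand from 250 bases before to 50 bases after the gene start of RefSeq on the GRCr8 build, at chr13:100792636-100792935 (minus strand) for Tgfb2, chr17:53804459-53804758 (minus strand) for Inhba and chr16:18839015-18839314 (plus strand) for Gdf15. The counts were made on the rn5 build, so these positions were not joined to them. Capitals mark matches on either strand to CAGAC (the SMAD box), TGANTCA (AP-1), TGACGTCA (the cyclic AMP response element), GGGCGG (the GC box), CACGTG (the E-box) and the ATF4 composite element.
Tgfb2: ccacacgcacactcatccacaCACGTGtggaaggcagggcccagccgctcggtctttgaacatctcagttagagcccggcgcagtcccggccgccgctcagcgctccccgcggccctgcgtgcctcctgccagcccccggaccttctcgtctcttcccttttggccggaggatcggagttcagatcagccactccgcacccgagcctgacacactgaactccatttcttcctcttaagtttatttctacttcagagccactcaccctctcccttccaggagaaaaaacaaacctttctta
Inhba: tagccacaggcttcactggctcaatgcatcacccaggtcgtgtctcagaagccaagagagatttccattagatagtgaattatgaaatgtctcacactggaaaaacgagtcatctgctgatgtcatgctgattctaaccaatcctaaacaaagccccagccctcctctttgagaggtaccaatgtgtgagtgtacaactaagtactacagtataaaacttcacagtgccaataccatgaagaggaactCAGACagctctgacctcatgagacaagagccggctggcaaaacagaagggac
Gdf15: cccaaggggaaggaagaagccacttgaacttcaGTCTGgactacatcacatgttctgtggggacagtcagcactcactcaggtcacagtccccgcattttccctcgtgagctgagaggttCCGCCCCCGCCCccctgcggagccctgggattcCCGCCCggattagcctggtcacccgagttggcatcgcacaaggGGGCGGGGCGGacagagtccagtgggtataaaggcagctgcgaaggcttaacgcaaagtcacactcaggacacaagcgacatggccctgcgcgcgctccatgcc

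The windows share little of the letters searched. Tgfb2 holds 1 E-box, 229 bases before the start, which 6.42% of all 33469 windows of this length also hold. The SMAD box lies in the windows of Inhba and Gdf15, and of the other members only in that of Ltbp1, so 3 of the 9 hold it against 50.1% of all windows. Gdf15 holds 5 GC boxes, some of them overlapping, and 4 of the 9 members hold at least 1 against 33.1% of all windows. The cyclic AMP response element was found in the window of Ltbp1, 108 bases before its start, and in 1.83% of all windows, whereas AP-1 (7.33%), the ATF4 composite element (0.902%) and the SMAD palindrome GTCTAGAC (0.197%) matched none of the 9 windows. A match describes the letters and is no evidence of binding.

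Among the 3 TGF-beta ligands, phenylephrine raised Tgfb2 most, raised Tgfb3 to a lesser degree and was not seen to change Tgfb1, while IGF1 lowered Tgfb1 and Tgfb3. Tgfb2 encodes the isoform best known from heart valve and septum development. It stood at 446, 466 and 476 CPM in the phenylephrine samples, at 251, 84.1 and 86.4 CPM in IGF1 replicates 1, 2 and 3, and at 136, 134 and 132 CPM in the vehicle samples. Every phenylephrine sample lay above every other sample, and IGF1 replicate 1 lay above all vehicle samples while its 2 companions lay below them. The rise with phenylephrine was 3.46-fold (463 ± 15.3 against 134 ± 1.86 CPM, SD, n = 3 each; log2 fold change 1.79, SE 0.44, edgeR adjusted p = 0.013). Without IGF1 replicate 1 the log2 fold change was again 1.79, with an SE of 0.03 and an adjusted p of 9.5e-38.

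The IGF1 value of Tgfb2 turned on that 1 sample. With all samples, IGF1 gave 141 ± 95.9 CPM against 134 ± 1.86 CPM with vehicle (log2 0.07, 95% interval -0.99 to 1.12, edgeR adjusted p = 0.92), an interval that spans a change of about 2-fold either way. Without IGF1 replicate 1 the log2 fold change was -0.65 (SE 0.04, adjusted p = 3.1e-19), so that Tgfb2 was lower than with vehicle. Phenylephrine against IGF1 gave log2 1.73 with all samples (SE 0.44, adjusted p = 0.017) and 2.44 without IGF1 replicate 1 (SE 0.04, adjusted p = 1.8e-39), and this call ended when only these 2 groups were fitted (adjusted p = 0.059).

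Tgfb3, whose product uses the same receptors, had 243, 240 and 245 CPM with phenylephrine, 154, 113 and 118 CPM with IGF1 and 183, 190 and 182 CPM with vehicle. The 3 groups did not overlap, with phenylephrine highest, vehicle between and IGF1 lowest. It was 1.31-fold higher with phenylephrine than with vehicle (log2 0.39, SE 0.10, edgeR adjusted p = 0.0078) and 1.45-fold lower with IGF1 than with vehicle (log2 -0.53, SE 0.10, adjusted p = 0.0018; -0.68 without IGF1 replicate 1). The direct difference of phenylephrine against IGF1 was log2 0.92 (SE 0.10, adjusted p = 4.2e-05; 1.07 without IGF1 replicate 1).

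Tgfb1, the isoform most often studied in cardiac fibrosis, had 25.6, 24.2 and 25.4 CPM with phenylephrine, 17.7, 15.3 and 17.2 CPM with IGF1 and 25.6, 26.9 and 27.3 CPM with vehicle. The IGF1 samples were the lowest, and phenylephrine and vehicle samples met at 25.6 CPM. IGF1 lowered it 1.6-fold against vehicle (log2 -0.67, SE 0.07, edgeR adjusted p = 1.3e-06), and phenylephrine against vehicle gave log2 -0.09 (95% interval -0.23 to 0.06, adjusted p = 0.29). When samples were scaled by library size only, which moved the median of all genes to log2 -0.22 against -0.03, that value became -0.28 (adjusted p = 0.0024).

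**Figure D1:**
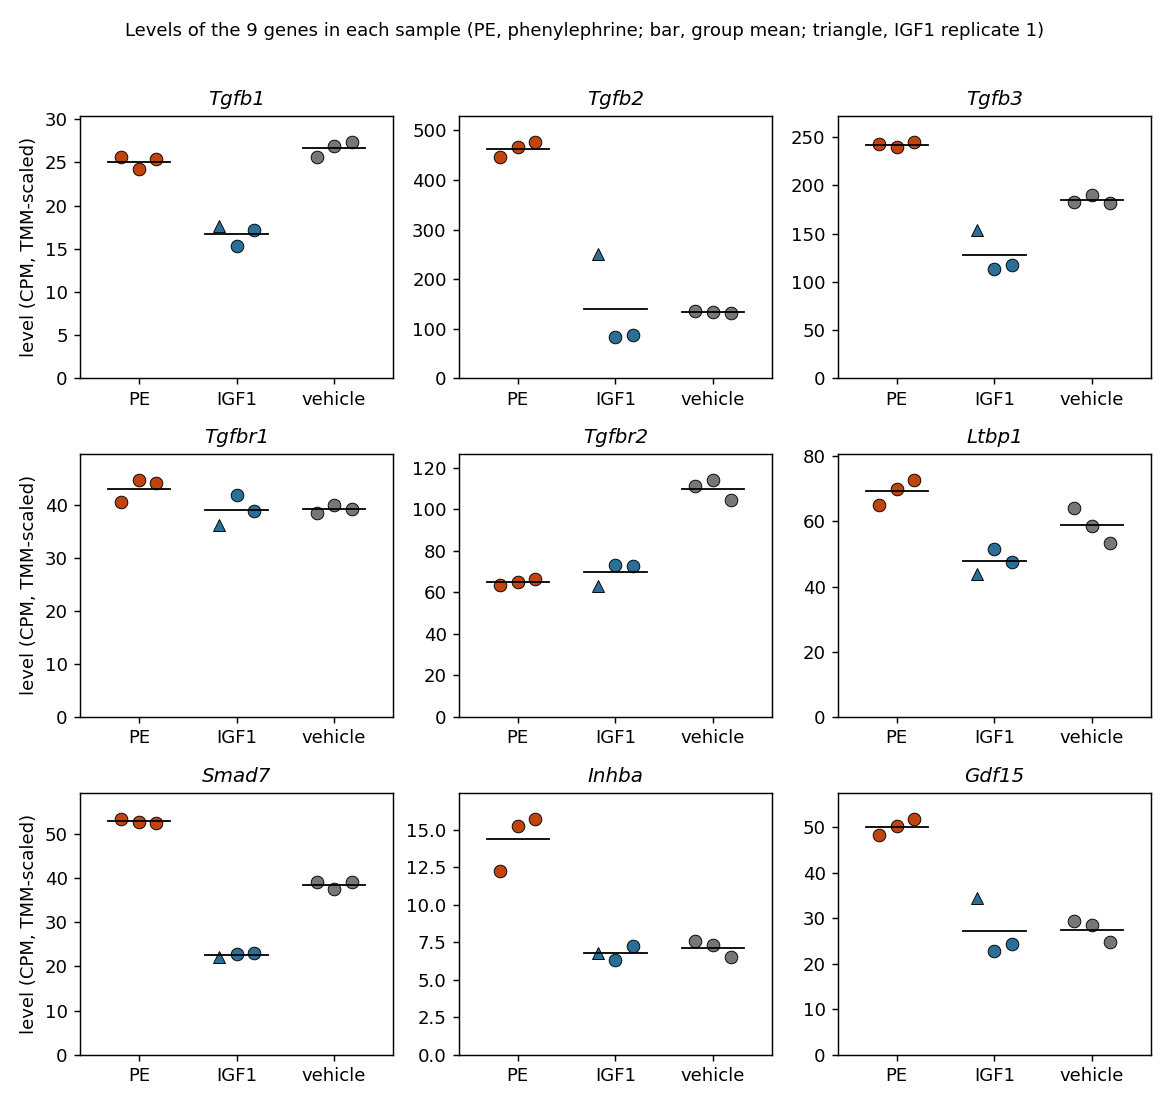
Level of each of the 9 genes in every sample (vertical axes, CPM from 0), with phenylephrine (PE), IGF1 and vehicle side by side, a bar at each group mean and a triangle for IGF1 replicate 1. Tgfb2, Tgfb3, Ltbp1 (by a small gap), Smad7, Inhba and Gdf15 are highest in all 3 phenylephrine samples, Tgfbr2 is lower in both treated groups than with vehicle, and the triangle sits apart in Tgfb2 at 251 CPM.

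Read ratios within a sample do not depend on scaling between samples, and they describe the balance of the ligand transcripts. Because the transcripts differ in length, such a ratio is compared between samples only. The ratio of Tgfb2 to Tgfb3 reads was 1.84, 1.94 and 1.94 with phenylephrine, 1.64, 0.744 and 0.735 in IGF1 replicates 1, 2 and 3, and 0.74, 0.702 and 0.724 with vehicle. IGF1 replicates 2 and 3 thus lay at the upper edge of the vehicle range or just beyond it, and IGF1 replicate 1 lay nearer to the phenylephrine samples. The ratio of Tgfb3 to Tgfb1 reads was 9.47 to 9.90 with phenylephrine, 6.85 to 8.69 with IGF1 and 6.66 to 7.14 with vehicle.

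**Figure D2:**
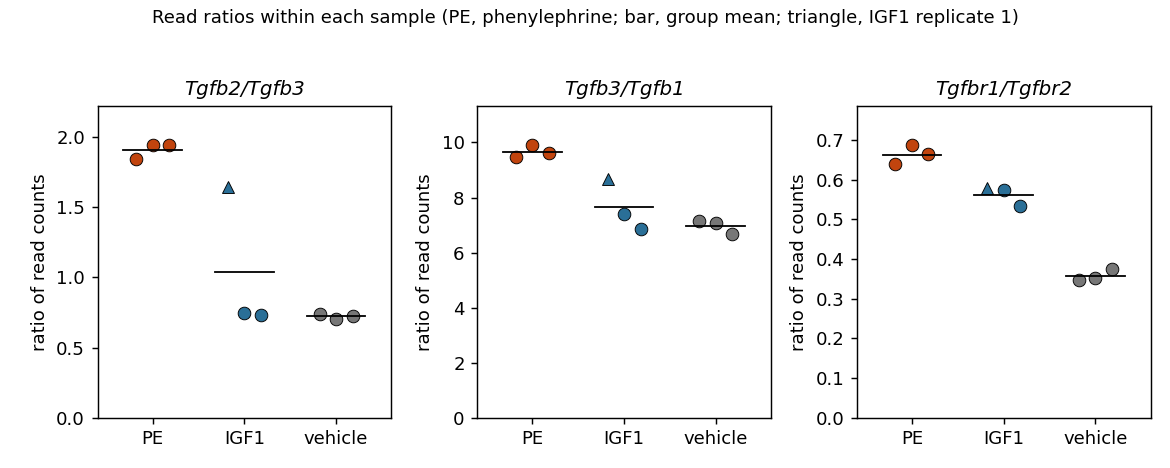
Ratio of read counts of 2 genes within each sample (vertical axes from 0, no unit), by group, with a bar at each group mean and a triangle for IGF1 replicate 1. The ratio of Tgfb2 to Tgfb3 reads is higher in the 3 phenylephrine samples and in IGF1 replicate 1 than in the other samples. The ratio of Tgfbr1 to Tgfbr2 reads is higher in all 6 treated samples than in the 3 vehicle samples.

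The type II receptor gene fell under both stimuli, and the type I receptor gene did not pass the threshold in any comparison. Tgfbr2, which encodes the receptor that binds the ligand first, had 63.7, 65.1 and 66.6 CPM with phenylephrine, 62.9, 73.2 and 72.9 CPM with IGF1 and 111, 114 and 105 CPM with vehicle. All 6 treated samples lay below all 3 vehicle samples, and the treated groups overlapped each other. It was 1.69-fold lower with phenylephrine (log2 -0.76, SE 0.06, edgeR adjusted p = 5.3e-08) and 1.58-fold lower with IGF1 (log2 -0.66, SE 0.06, adjusted p = 2.8e-07). The treatments differed by log2 -0.10 (95% interval -0.22 to 0.02, adjusted p = 0.16), and by -0.17 without IGF1 replicate 1 (adjusted p = 9e-04).

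Tgfbr1 had 40.7, 44.7 and 44.2 CPM with phenylephrine, 36.3, 42.0 and 39.0 CPM with IGF1 and 38.7, 40.1 and 39.3 CPM with vehicle. The differences were small beside those of Tgfbr2, at log2 0.13 for phenylephrine against vehicle (95% interval 0.01 to 0.26, edgeR adjusted p = 0.064) and -0.01 for IGF1 against vehicle (-0.13 to 0.12, adjusted p = 0.94). The phenylephrine value passed the threshold without IGF1 replicate 1 (log2 0.14, adjusted p = 0.014), and without phenylephrine replicate 1 (0.18, adjusted p = 0.034), yet it became -0.06 with scaling by library size only. Reads of Tgfbr1 per read of Tgfbr2 were 0.639, 0.687 and 0.664 with phenylephrine, 0.578, 0.574 and 0.534 with IGF1 and 0.347, 0.352 and 0.375 with vehicle, so the 3 groups did not overlap in the balance of the receptor transcripts. Tgfb2 reads per Tgfbr2 read were 7.01 to 7.16 with phenylephrine, 4, 1.15 and 1.18 in IGF1 replicates 1, 2 and 3, and 1.17 to 1.26 with vehicle. IGF1 replicate 1 alone of its group lay above the vehicle samples in this ratio.

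Smad7 and Ltbp1 moved in opposite directions under the 2 stimuli. Smad7, which encodes the feedback inhibitor that blocks the type I receptor and brings ubiquitin ligases to it, had 53.4, 52.6 and 52.5 CPM with phenylephrine, 22.2, 22.8 and 23.1 CPM with IGF1 and 39.2, 37.4 and 39.0 CPM with vehicle. The 3 groups were far apart relative to their spread, and IGF1 replicate 1 lay with its group. Smad7 was 1.37-fold higher with phenylephrine than with vehicle (log2 0.46, SE 0.05, edgeR adjusted p = 1.2e-06) and 1.70-fold lower with IGF1 than with vehicle (log2 -0.77, SE 0.05, adjusted p = 1.1e-08). Phenylephrine against IGF1 gave 2.33-fold (log2 1.22, SE 0.05, adjusted p = 4.1e-11).

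Ltbp1, which encodes a binding protein that holds latent ligand in the matrix, had 65.1, 70.0 and 72.6 CPM with phenylephrine, 43.9, 51.6 and 47.6 CPM with IGF1 and 64.3, 58.7 and 53.5 CPM with vehicle. The groups did not overlap, but the gap between the lowest phenylephrine and the highest vehicle sample was small. It was 1.18-fold higher with phenylephrine (log2 0.24, SE 0.07, edgeR adjusted p = 0.012) and 1.23-fold lower with IGF1 (log2 -0.30, SE 0.07, adjusted p = 0.0034), and the treatments differed by log2 0.54 (SE 0.07, adjusted p = 2.6e-05). The phenylephrine call ended without vehicle replicate 3 (log2 0.16, adjusted p = 0.080), without phenylephrine replicate 3 (0.20, 0.058) and under library-size scaling (0.04, 0.71).

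Inhba and Gdf15 were raised by phenylephrine, and neither passed the threshold with IGF1 against vehicle. Inhba encodes the subunit whose homodimer is activin A. It had 12.2, 15.3 and 15.7 CPM with phenylephrine, 6.78, 6.34 and 7.23 CPM with IGF1 and 7.56, 7.31 and 6.51 CPM with vehicle, the lowest levels in reads (206 to 487 per sample) of the 9 genes. The phenylephrine samples lay above all others, and the IGF1 and vehicle samples overlapped. Inhba was 2.03-fold higher with phenylephrine (log2 1.02, SE 0.11, edgeR adjusted p = 2.1e-06), and IGF1 against vehicle gave log2 -0.07 (95% interval -0.31 to 0.17, adjusted p = 0.65).

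Gdf15 encodes a distant member of the family that signals through the receptor GFRAL in the brainstem and is released by stressed cells. It had 48.3, 50.2 and 51.9 CPM with phenylephrine, 34.4, 22.8 and 24.3 CPM with IGF1 and 29.4, 28.5 and 24.7 CPM with vehicle. IGF1 replicate 1 was above every vehicle sample and the other IGF1 samples were below every vehicle sample, the same arrangement as for Tgfb2. Gdf15 was 1.82-fold higher with phenylephrine (log2 0.86, SE 0.14, edgeR adjusted p = 7.5e-04), and IGF1 against vehicle gave log2 -0.03 (95% interval -0.36 to 0.30, adjusted p = 0.88) with all samples and -0.22 (SE 0.06, adjusted p = 0.0033) without IGF1 replicate 1. Phenylephrine against IGF1 gave log2 0.90 (SE 0.14, adjusted p = 6.8e-04) with all samples and 1.09 without IGF1 replicate 1. The ratio of IGF1 replicate 1 to the mean of replicates 2 and 3 was 2.95 for Tgfb2, 1.46 for Gdf15 and 1.33 for Tgfb3, and it ran from 0.861 to 1.09 for the other 6 genes.

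**Figure D3:**
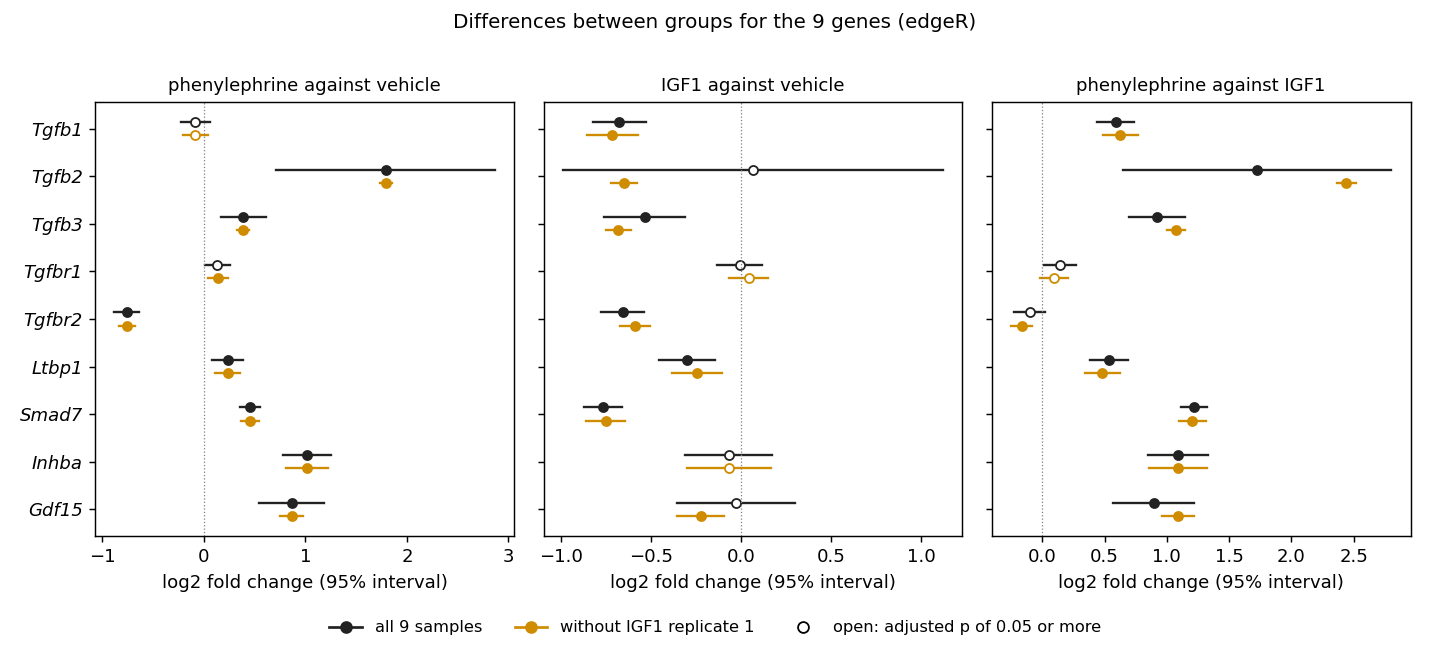
Log2 fold change with its 95% interval for the 9 genes (rows) in each of the 3 comparisons (panels), with all 9 samples in black and without IGF1 replicate 1 in ochre; open points did not pass an adjusted p of 0.05. Leaving out that sample narrows the interval of Tgfb2 and moves its IGF1 value to log2 -0.65, while Smad7 and Inhba stay in place.

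Over the 9 genes, 6 were higher and 1 was lower with phenylephrine than with vehicle, against 27.9% higher, 28.9% lower and 56.8% in either direction among all 11873 genes tested. Because the genes were chosen with earlier results of these data known, counts over the 9 describe them and do not test the set. The median log2 fold change was 0.39, against -0.03 over all genes tested. The 3 phenylephrine samples did not overlap the 3 vehicle samples for any of the 9, with 7 above and 2 below (Tgfb1, by less than the digits printed, and Tgfbr2). Such separation was common in this comparison, at 66.6% of all genes tested (32.6% above, 34% below).

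With IGF1 against vehicle 5 of the 9 were lower, against 23.4% lower and 48.1% in either direction among all genes, and the median was -0.30, against 0.00. None of the 9 was higher by edgeR (24.7% of all genes were), by DESeq2 or by limma-voom, and none had an unadjusted edgeR p under 0.05 in that direction. The same 5 (Tgfb1, Tgfb3, Tgfbr2, Ltbp1 and Smad7) lay below every vehicle sample without overlap and none lay above, against 27.7% below, 28.8% above and 56.5% in either direction of all genes. Without IGF1 replicate 1, Tgfb2 and Gdf15 also passed the threshold as lower with IGF1. The share of all genes lower in that fit is not given here. Both comparisons share the vehicle samples.

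In phenylephrine against IGF1, 7 were higher, against 27.1% higher and 54.2% in either direction of all genes, and 0 were lower (27.1% of all genes; 0 at an unadjusted edgeR p under 0.05, and 0 by DESeq2 and limma-voom). Without IGF1 replicate 1, Tgfbr2 was lower (log2 -0.17, edgeR adjusted p = 9e-04), in a fit whose share of all genes is not given here. The median was 0.90, against 0.00 over all genes. The samples of these groups did not overlap for those 7, all above, against 29.3% above, 29.5% below and 58.8% in either direction of all genes, and Tgfbr1 and Tgfbr2 overlapped.

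Genes whose pattern over the 9 samples lay closest were sought for the 8 members past the threshold in at least 1 comparison (all but Tgfbr1), and were found as the smallest root mean square difference in log2 CPM, after each gene was centred on its vehicle mean, among 9301 genes with a mean of at least 5 CPM. For Tgfb2 they were Pxdc1 (0.09) and S1pr1 (0.14), for Smad7 Clu (0.03) and Etv5 (0.09), for Gdf15 Cyb5d2 (0.07) and Ilk (0.08), and for Inhba Col4a1 (0.10) and Lpar3 (0.11). For Tgfb3 they were Tsc22d1 and Spry1 (0.09 each), for Tgfbr2 Cnnm3 (0.05) and Rbl2 (0.06), for Ltbp1 Il1r1 and Fgd6 (0.07 each), and for Tgfb1 Cltb and LOC689574 (0.07 each). The points share libraries and groups, so closeness is a description of these samples. Without IGF1 replicate 1, the closest 2 genes were the same 2 for Inhba, shared 1 gene for 6 members and shared 0 for Tgfb3, while the genes named here were all still among the closest 10 of their member.

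The rest of the pathway was described from 8 further lists, also chosen with earlier results of these data known. Their counts are to be read against the shares of all genes tested that were called, 27.9% higher and 28.9% lower with phenylephrine and 24.7% higher and 23.4% lower with IGF1. Those shares are of the fit with all 9 samples. List counts from fits that leave out a sample have no such share beside them. Of 15 tested genes listed as superfamily ligands, 4 were higher and 5 lower with phenylephrine (median log2 -0.29), near those shares with all samples. The list holds Bmp1, which encodes a protease and not a ligand, and which was not called with phenylephrine. Inha, the alpha subunit that pairs with Inhba or Inhbb to form an inhibin in place of an activin, had 67.8, 68.9 and 74.2 CPM with phenylephrine, 10.5, 7.90 and 9.16 CPM with IGF1 and 10.0, 9.16 and 9.77 CPM with vehicle. It was 7.27-fold higher with phenylephrine than with vehicle (log2 2.86, SE 0.08, edgeR adjusted p = 8.7e-12), a larger rise than that of any of the 9 members. Bmp10, a ligand of the developing heart, was 3.62-fold higher from a low level (1.55 ± 0.18 against 0.42 ± 0.16 CPM, adjusted p = 1.1e-04). Bmp3 was 2.06-fold lower (6.87 ± 1.06 against 14.1 ± 0.65 CPM) and Bmp5 1.34-fold lower. The call of Bmp5 ended without phenylephrine replicate 1 (adjusted p = 0.16) and without vehicle replicate 2 or 3 (0.099 and 0.055). Over the fits without 1 sample, 3 to 7 ligands in place of 5 were lower, the 3 being without phenylephrine replicate 1.

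With IGF1, 3 genes of the superfamily ligand list were higher and 5 lower (median -0.22). Bmp4, a ligand that acts through SMAD1, SMAD5 and SMAD9, fell 2.52-fold (13.9 ± 1.98 with IGF1 against 35.2 ± 3.02 CPM with vehicle; log2 -1.33, SE 0.09, edgeR adjusted p = 2.4e-08). Inhbb, the other activin beta subunit, fell 1.91-fold (7.68 ± 1.25 against 14.8 ± 2.58 CPM, adjusted p = 4.2e-05). Gdf11 and Bmp7 were 1.52-fold and 1.34-fold higher. The fall of Inhbb was 1.77-fold and the rise of Bmp7 1.23-fold without IGF1 replicate 1. Bmp7 rose further with phenylephrine, at 2.45-fold over vehicle (edgeR adjusted p = 7.2e-07).

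Of 12 tested receptors and coreceptors, 5 were higher and 4 lower with phenylephrine (median 0.08). Tgfbr3, or betaglycan, the coreceptor that presents TGFB2 to the type II receptor, had 55.3, 56.4 and 56.9 CPM with phenylephrine, 68.8, 85.9 and 88.7 CPM with IGF1 and 109, 112 and 104 CPM with vehicle. The treated samples lay below all vehicle samples, and the fall with phenylephrine was 1.92-fold (log2 -0.94, SE 0.08, edgeR adjusted p = 5e-07). The repulsive guidance coreceptor Rgma was 1.79-fold lower, the activin type I receptor Acvr1b 1.29-fold higher and the coreceptor endoglin, Eng, 1.26-fold higher. With IGF1, 1 of the 12 was higher (Acvr1, 1.22-fold) and 7 were lower (median -0.28), among them the endothelial type I receptor Acvrl1 at 1.49-fold (1.38-fold without IGF1 replicate 1) and Rgma at 1.44-fold lower. Endothelial markers were lower in the same samples, as given above, and their part in the value of Acvrl1 was not tested. Without IGF1 replicate 1, 2 were higher and 6 lower.

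Of 15 tested genes of latency and activation, 3 were higher and 2 lower with phenylephrine (median -0.08; 3 and 4 without IGF1 replicate 1 and 4 lower without vehicle replicate 3). Thbs1, which encodes thrombospondin 1, an activator of latent TGF-beta, rose 1.94-fold (881 ± 23.0 with phenylephrine against 455 ± 25.6 CPM with vehicle; log2 0.95, SE 0.07, edgeR adjusted p = 2.7e-07), and the integrin subunit Itgb5 1.31-fold. Ltbp3 and Ltbp2, relatives of Ltbp1, were 1.36-fold and 1.25-fold lower. With IGF1, 3 of the 15 were higher and 8 lower (median -0.34). The integrin subunit Itgb6, part of an integrin that activates latent TGF-beta, was 5.15-fold higher at low levels (2.18 ± 0.63 against 0.43 ± 0.16 CPM, adjusted p = 2.7e-05), and the matrix protease Mmp14 was 1.47-fold higher. Ltbp2 was 2.01-fold lower and the integrin subunit Itgb8 1.65-fold lower. Itgb6 was 5.84-fold higher and Itgb8 1.5-fold lower without IGF1 replicate 1.

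Antagonists and decoys numbered 5 higher and 3 lower of 11 tested with phenylephrine (median 0.28). Fstl3, a secreted binder of activins, rose 2.35-fold (17.5 ± 1.26 against 7.46 ± 0.77 CPM; log2 1.23, SE 0.14, edgeR adjusted p = 2.8e-06). The antagonist Grem1 was 1.37-fold higher, a call that ended without any 1 vehicle sample (adjusted p = 0.053 to 0.056) and with scaling by library size only (0.064). Fstl1 was 1.18-fold lower, and Chrdl1 was 1.87-fold lower at low levels (0.41 to 0.61 CPM with phenylephrine and 0.76 to 1.05 CPM with vehicle). The Chrdl1 call was lost by limma-voom (0.063) and in 4 fits that each left out 1 sample, namely replicates 1 and 2 of phenylephrine and 1 and 3 of vehicle (0.086 to 0.12). Without vehicle replicate 3, 2 were higher and 1 lower, and without phenylephrine replicate 1 or 2, 1 was lower. With IGF1, 5 of the 11 were lower, and 0 were higher by edgeR, at an unadjusted p under 0.05, by DESeq2 or by limma-voom (median -0.21). The antagonists Nog and Grem1, which bind bone morphogenetic proteins, were 2.11-fold and 1.77-fold lower, and Grem1 was 2.08-fold lower without IGF1 replicate 1.

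Of 18 tested SMADs and their regulators, 4 were higher and 5 lower with phenylephrine (median -0.03), at most the shares of all genes tested. The second inhibitory SMAD, Smad6, was 1.29-fold higher and the corepressor Tgif2 1.25-fold higher, both below the threshold with scaling by library size only (edgeR adjusted p = 0.095 and 0.16). Nedd4l, a ubiquitin ligase for activated SMADs, was 1.37-fold lower and the receptor-regulated Smad3 1.26-fold lower. With IGF1, 2 were higher and 9 lower (median -0.13; 4 and 10 without IGF1 replicate 1). Smad9 was 1.74-fold (1.58-fold without that sample) and the corepressor Tgif1 1.69-fold lower, the ubiquitin ligase Smurf1 was 1.25-fold higher, and Tgif2 was 1.19-fold higher (adjusted p = 0.10 with scaling by library size only).

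Known targets of TGF-beta and bone morphogenetic proteins, 23 of them tested, were higher in 11 cases and lower in 7 with phenylephrine (median 0.33). Id1, a target of the SMAD1 branch, rose 3.34-fold (47.3 ± 1.48 against 14.2 ± 0.83 CPM, edgeR adjusted p = 6.3e-10) and the protease inhibitor Timp1 2.78-fold (99.5 ± 4.06 against 35.8 ± 3.84 CPM, adjusted p = 1.1e-09). Snai2 and the elastin gene Eln were 2.24-fold and 1.59-fold lower. With IGF1, 3 were higher and 9 lower (median -0.06; 4 and 12 without IGF1 replicate 1). Tgfbi and Postn, secreted matrix proteins, were 2.29-fold and 1.66-fold higher with IGF1, and the crosslinking enzyme Lox was 1.82-fold lower (1.65-fold without IGF1 replicate 1).

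One widely used target gene of TGF-beta was singled out after its values were seen. Ctgf, which encodes a matricellular protein, had 2621, 2742 and 2676 CPM with phenylephrine, 1439, 360 and 362 CPM in IGF1 replicates 1, 2 and 3, and 1017, 1034 and 1066 CPM with vehicle. IGF1 replicate 1 again lay above all vehicle samples and its companions below them. Neither difference from vehicle passed the threshold with all samples (log2 1.37, edgeR adjusted p = 0.083 for phenylephrine and -0.53, adjusted p = 0.48 for IGF1). Without that sample the values were log2 1.37 (SE 0.03, adjusted p = 1.1e-34) and -1.52 (SE 0.03, adjusted p = 1.3e-32).

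Stress response genes linked to Gdf15, 13 of them tested, were higher in 7 cases and lower in 2 with phenylephrine (median 0.38). Chac1, an enzyme of glutathione breakdown that ATF4 induces, rose 2.83-fold (33.9 ± 1.41 against 12.0 ± 1.33 CPM, edgeR adjusted p = 1.1e-05), and Ddit3, which encodes the stress factor CHOP, was 1.46-fold lower, as was the mitochondrial reductase gene Fdxr at 1.56-fold. Atf3 had 39.4, 40.4 and 37.7 CPM with phenylephrine, 26.7, 6.77 and 6.31 CPM in IGF1 replicates 1, 2 and 3, and 9.38, 10.4 and 8.92 CPM with vehicle. This stress-induced factor was 4.11-fold higher with phenylephrine (adjusted p = 0.020; 2.1e-26 without IGF1 replicate 1), a call that was lost without any 1 vehicle sample (0.057 to 0.065) and without phenylephrine replicate 1 or 2 (0.050 and 0.052). With IGF1, 3 were higher and 4 lower (median 0.02; 3 and 7 without IGF1 replicate 1). The cell cycle inhibitor Cdkn1a and the sestrin Sesn2 were 1.49-fold and 1.34-fold higher, and the heme oxygenase Hmox1 and the early response factor Egr1 were 1.73-fold and 1.59-fold lower (Egr1 1.74-fold without IGF1 replicate 1).

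Other stress cytokines were higher in 5 and lower in 2 of 16 tested cases with phenylephrine (median 0.10). The rises were led by ligands of the EGF receptor, Hbegf at 5.27-fold (162 ± 3.29 against 30.7 ± 1.25 CPM, edgeR adjusted p = 0.012) and Areg at 4.06-fold (18.2 ± 0.35 against 4.49 ± 0.16 CPM, adjusted p = 5.1e-05). In the IGF1 group, Hbegf stood at 82.8 CPM in replicate 1 and at 19.2 and 20.5 CPM in the others, and without that replicate its phenylephrine rise had an adjusted p of 7.2e-38. The cardiotrophin gene Ctf1 and the alarmin Il33 were 1.84-fold and 1.29-fold lower. With IGF1, 4 were higher and 5 lower (median -0.19), with Ccl2 and Spp1 at 1.44-fold and 1.20-fold and Clcf1 2.49-fold lower. Areg had 3.26, 1.31 and 1.28 CPM in IGF1 replicates 1, 2 and 3 and 4.49 ± 0.16 CPM with vehicle, a fall of 2.43-fold with all IGF1 samples and of 3.47-fold without replicate 1. The number higher was 1 without vehicle replicate 2 or IGF1 replicate 2 and 2 without IGF1 replicate 3. The call of Spp1 was lost when IGF1 replicate 2 or 3 or vehicle replicate 1 or 2 was left out (adjusted p = 0.067 to 0.071), and under library-size scaling (0.16).

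**Figure D4:**
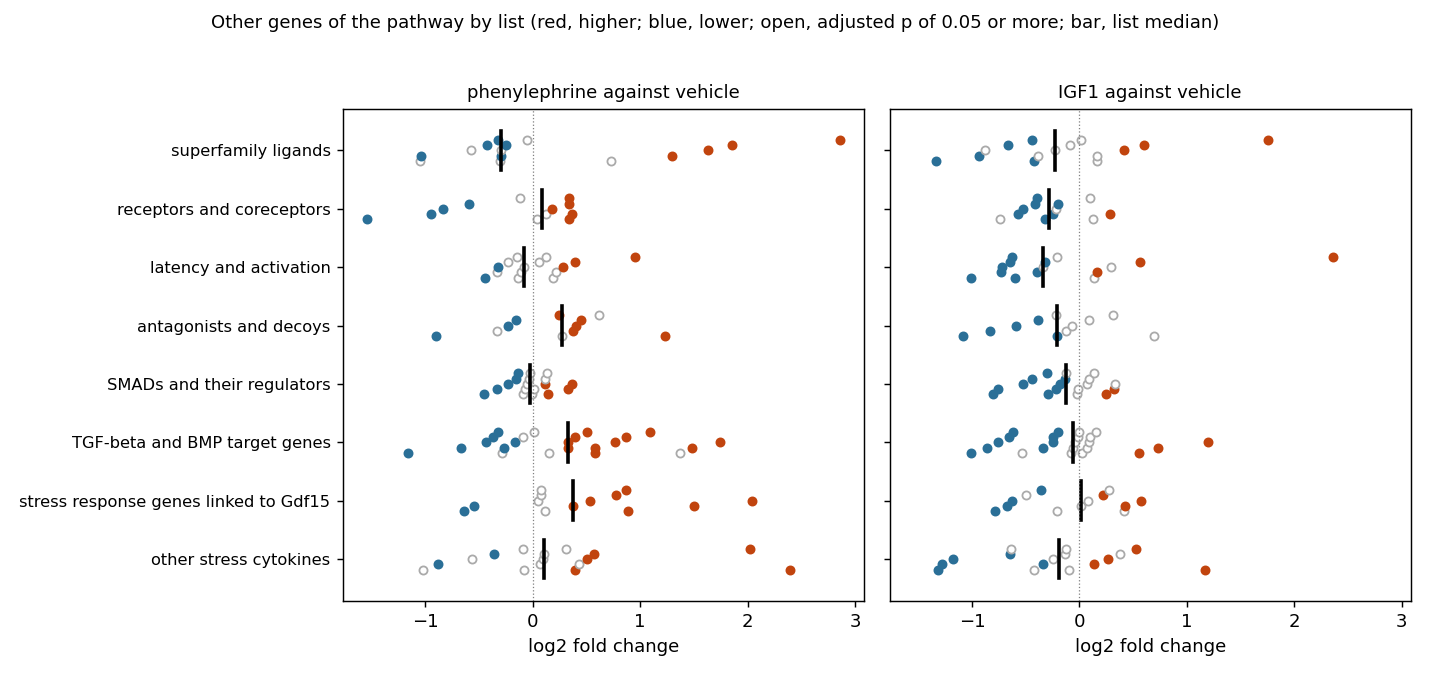
Log2 fold change (horizontal axes) of the tested genes of the 8 further lists (rows) for phenylephrine against vehicle and IGF1 against vehicle, with filled red points for genes higher, filled blue for genes lower, open points for an adjusted p of 0.05 or more, and a bar at each list's median. Medians lie at -0.34 to 0.02 for IGF1 and at -0.29 to 0.38 for phenylephrine.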

How the data were processed

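RNA was sequenced in 9 samples, 3 per group as their titles give them. The authors deposited one table of raw read counts by gene symbol, not normalized. The submitters' processing notes name STAR, HTSeq, DESeq and the build rn5. Versions and the use of strand in counting are not given in the sources used here, so reads of overlapping or antisense genes may be mixed. From these counts, genes were kept by filterByExpr of edgeR 4.0.16 (minimum count 10, minimum total count 15), which left 99.99% of counts. Trimmed mean of M-values scaling and edgeR's robust quasi-likelihood test were run on all 9 samples together (R 4.3.3), with Benjamini-Hochberg adjustment over every tested gene and a threshold of 0.05. An SE is the size of the log2 fold change over the root of its F statistic. The code was tested on simulated data. Alternatives were DESeq2 1.42.0, limma-voom (limma 3.58.1), other scalings and filters, fits of 2 groups, the replicate number as a block, and leaving out each sample. From each list the text names up to 2 genes with the highest and 2 with the lowest log2 fold change past the threshold. They needed a mean of at least 1 CPM in any 1 of the 3 groups. Bmp10 and Itgb6 met this only through the group where they were high. Chrdl1, named for phenylephrine against vehicle, met it only through the IGF1 group (1.13 CPM). The members and lists were chosen with earlier results of these data known. All 9 members matched the RefSeq promoter table by symbol. Protein sequences were not used here.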

Additional observations from a re-analysis of the deposited data

How the results depend on the processing

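Under the alternatives, 540 log2 fold changes of the 9 genes were recomputed. Of these, 517 kept their side of the threshold, 7 lost it and 14 gained it. The other 2 reversed in sign, with a call in 1 of the 2 fits compared. The 517 include changes of sign where neither fit passed the threshold, such as Tgfbr1 with phenylephrine against vehicle (log2 0.13 to -0.06). The 2 reversals were those of Tgfb2 with IGF1 against vehicle without IGF1 replicate 1, at log2 -0.65 by edgeR and -0.64 by DESeq2 (a combination added after seeing the data). Scaling by library size only gave 2 of the 9 lower with phenylephrine against vehicle (Tgfb1 added) and 1 lower with phenylephrine against IGF1 (Tgfbr2, also 1 by DESeq2 without IGF1 replicate 1). That scaling called 1751 genes higher and 5696 lower in place of 3310 and 3429 for phenylephrine against vehicle (23.5% of calls higher in place of 49.1%), 36.0% in place of 51.3% for IGF1 against vehicle, and 2132 higher in place of 3215 for phenylephrine against IGF1 (32.8% in place of 49.9%). Leaving out each sample in turn gave 5 to 7 members higher and 1 lower with phenylephrine, 0 higher and 5 to 7 lower with IGF1, and 7 to 8 higher and 0 to 1 lower for phenylephrine against IGF1. A threshold of 0.01 ended the calls of Tgfb2 (phenylephrine against either group) and Ltbp1 (phenylephrine against vehicle). Samples of the same replicate number did not deviate together (correlations of -0.085 to 0.021 across genes). With 3 samples per group, each centred on its group mean, this cannot show whether they shared a preparation. With the replicate block, 7 members were higher and 1 lower with phenylephrine, 5 lower with IGF1, and 8 higher for phenylephrine against IGF1, the added call being that of Tgfbr1 (adjusted p = 0.044 and 0.034). The cause of these changes was not tested. Shares of all genes called are not printed for the fits without 1 sample or with the replicate block. The member counts of those fits therefore have no background beside them. The log2 fold change of Tgfb2 with IGF1 against vehicle ran from -0.65 to 0.32 over the fits without 1 sample. Depth limits Inhba most, with as few as 206 reads in a sample.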
